A study of Homo sapiens with 12 samples.

Results

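A set of 8 genes of the palmitoylation cycle was followed in MDA-MB-231 cells that received a miR-145-5p mimic with or without silencing of Ago2. The members were ABHD17A, ABHD17B, ABHD17C, LYPLA1, LYPLA2, PPT1, ZDHHC9 and GOLGA7, which makes 8 of the 18253 genes measured. Their probes were found through the transcript accession that each probe carries. The set was drawn around ABHD17C, which was selected on its measured mimic differences in both arms of these arrays, a pair of nearly equal falls. The ABHD17C values after the mimic are therefore a description and carry no test. The other members were added for their place in the same cycle, with earlier results of these data known, so their tests are not wholly independent of the choice.

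Palmitoylation attaches a fatty acid to cysteines of a protein and anchors it to membranes. Acyltransferases of the ZDHHC family add the lipid, and thioesterases remove it, so that proteins such as NRAS and HRAS cycle between the Golgi and the plasma membrane. ZDHHC9 is the acyltransferase that modifies HRAS and NRAS, and GOLGA7 is the partner protein it needs. LYPLA1 and LYPLA2 are the cytosolic acyl-protein thioesterases, ABHD17A, ABHD17B and ABHD17C are membrane-bound hydrolases that remove palmitate from NRAS and other proteins, and PPT1 is the thioesterase of the lysosome.

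MDA-MB-231 is an established triple-negative breast cancer cell line. The study asked how the response to miR-145-5p depends on Ago2, the Argonaute protein that can cleave RNA. The 4 groups of 3 exon arrays each were cells with control oligonucleotides (cntrl), cells with the mimic (mimic145), cells with an siRNA of the Dicer-substrate kind that targets Ago2 (sirnaAGO2), and cells with both agents (sirnaAGO2+mimic145). According to the methods the mimic was used at 5 nM and the siRNA at 500 pM, for 72 h of silencing, and all groups were transfected cells of this single line. Nothing in the labels says whether the replicates were separate cultures, so p-values measure the spread between these samples, which may be technical. The agent common to mimic145 and sirnaAGO2+mimic145 stands for the mature miRNA shown here from RefSeq (GRCh38.p14, chr5:149430661-149430683, plus strand), because every mimic comparison turns on it. Capitals mark the seed, bases 2 to 8.
miR-145-5p: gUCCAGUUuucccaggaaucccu

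Values are log2 of the array intensity after quantile normalization over the 12 arrays. A probe was kept where all 3 arrays of some group showed it well above background, and a gene is the mean of its kept probes. A gene was called changed at a Benjamini-Hochberg adjusted p under 0.05 over all 18253 genes in a limma fit blocked on the replicate number. Arrays carried between 60.5% and 77.3% of spots well above background, and on 5 of 6 slides this share was lower on the array with the mimic than on its partner, and its part in the results was not tested. Each slide held the pair of arrays that a replicate contributed to 1 arm, with the mimic always in the second position, so position and mimic cannot be told apart. The mesenchymal genes VIM, CD44 and AXL had 9, 18 and 19 kept probes, ZEB1 and MSN had 11 and 13, and SPARC kept 4 of 10. Of 7 epithelial and receptor genes taken as absent or low in this line, the epithelial gene ESRP1 and the hormone receptor PGR kept 0 probes, and the other 5 kept some: ESR1 6 of 14, ERBB3 11 of 29, CDH1 7 of 16, GRHL2 4 of 16 and EPCAM 9 of 10. The luminal genes KRT19 and GATA3 kept all 6, and the leukocyte genes PTPRC, CD3E and CD14 kept 4 of 33, 3 of 7 and 1 of 4.

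AGO2 checked the silencing. Its signal was 9.21, 9.14 and 9.01 on the cntrl arrays, 9.44, 9.36 and 9.39 on the mimic145 arrays, 8.35, 8.44 and 8.42 on the sirnaAGO2 arrays, and 8.27, 8.35 and 8.41 on the sirnaAGO2+mimic145 arrays (19 probes). All arrays with the siRNA lay below all arrays without it. AGO2 fell by 0.71 after silencing (SE 0.08, adjusted p = 0.00491, limma), to 61.0% of control. With a whole replicate left out, the adjusted p for AGO2 lay between 0.114 and 0.221 (limma), and it was 0.0522 without sirnaAGO2 replicate 1. With the mimic, AGO2 rose by 0.28 in control cells (adjusted p = 0.0298, limma), a call that was not tried with arrays left out or in other settings.

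ABHD17C was lower with the mimic in both arms. Its signal was 9.23, 9.34 and 8.97 on the cntrl arrays and 7.88, 8.03 and 7.71 on the mimic145 arrays. In Ago2-silenced cells it was 9.53, 9.45 and 9.08 without the mimic and 8.40, 7.96 and 7.81 with it. All 6 arrays with the mimic lay below all 6 arrays without it. In the order of the group means, mimic145 (7.87 ± 0.16, SD, n = 3 arrays) came lowest, then sirnaAGO2+mimic145 (8.06 ± 0.30), cntrl (9.18 ± 0.19) and sirnaAGO2 (9.35 ± 0.24). The arrays of mimic145 and sirnaAGO2+mimic145 overlapped, and so did those of cntrl and sirnaAGO2. In bulk samples such as these, fewer expressing cells and less RNA per cell cannot be told apart.

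**Figure D1:**
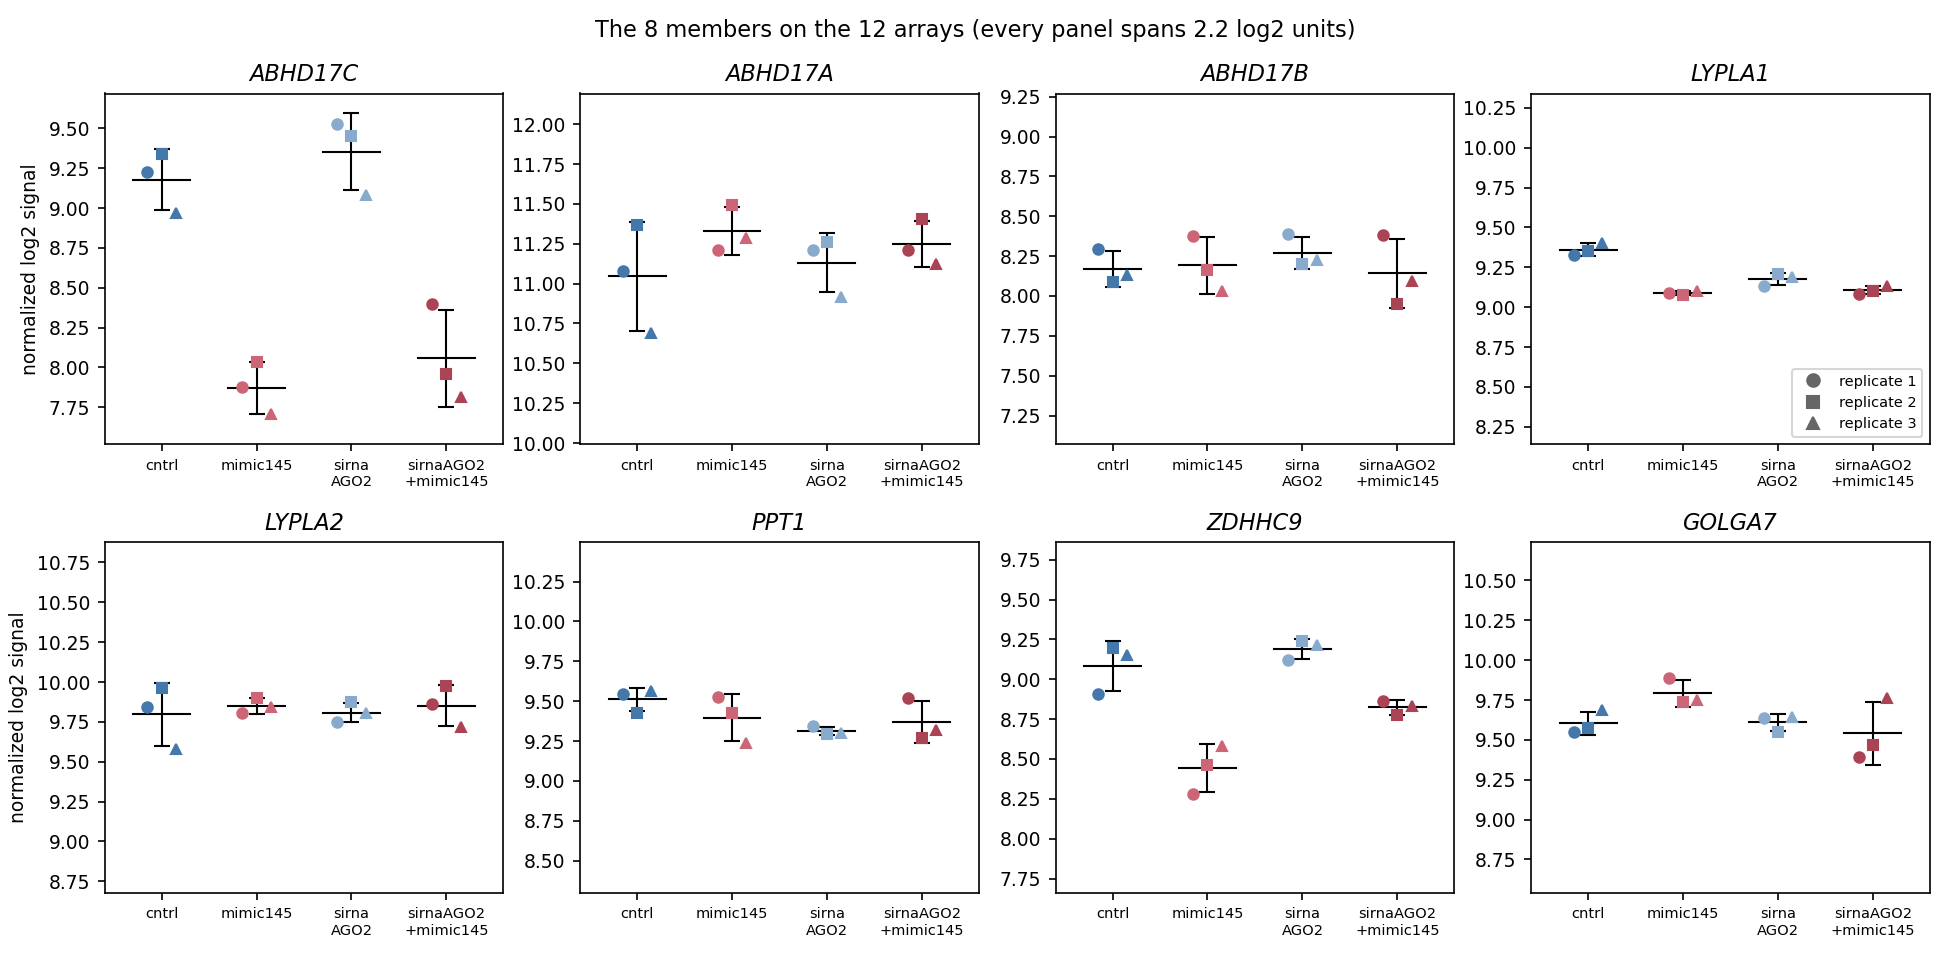
Normalized log2 signal (vertical axis) of each of the 8 members in the 4 groups (horizontal axis), with 1 point per array, a line at the mean and a bar of 1 SD (n = 3 arrays). ABHD17C and ZDHHC9 are lower on all arrays with the mimic, LYPLA1 is highest on the cntrl arrays, and the arrays with and without the mimic lie close together for ABHD17B and LYPLA2.

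The mimic difference of ABHD17C in control cells was -1.30 on the log2 scale, with -1.35, -1.31 and -1.26 in the 3 replicate pairs (SD 0.05). In silenced cells it was also -1.30, with -1.13, -1.50 and -1.27 in the pairs (SD 0.19). The signal left was 40.5% of cntrl and 40.7% of sirnaAGO2. Among all 18253 genes ordered from the most negative difference, ABHD17C took place 64 in control cells and place 20 in silenced cells. The difference between both mimic differences was 0.01, with pair values of 0.22, -0.19 and -0.01 that differ in sign. These comparisons are the ones for which ABHD17C was picked, and they are untested for that reason.

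The probes of ABHD17C did not move together. Probe A_23_P369701 averaged 9.38 ± 0.29 for cntrl, 7.46 ± 0.19 for mimic145, 9.65 ± 0.12 for sirnaAGO2 and 7.81 ± 0.43 for sirnaAGO2+mimic145 (SD, n = 3 arrays). Probe A_37_P175242 averaged 8.68 ± 0.07, 6.63 ± 0.16, 8.90 ± 0.17 and 6.76 ± 0.55 in the same order. Probe A_37_P175241 averaged 9.47 ± 0.34, 9.53 ± 0.18, 9.50 ± 0.47 and 9.60 ± 0.16, so its 4 groups overlapped. The mimic differences were -1.93 and -1.84 (control and silenced cells) for A_23_P369701, -2.06 and -2.15 for A_37_P175242, and 0.07 and 0.10 for A_37_P175241. All 3 probes carry the same transcript accession and were well above background on all 12 arrays. Where on the transcript each probe lies was not analysed here.

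The mean over 3 probes is therefore a mixture of 2 probes that were lower with the mimic and 1 that was not. In an alternative chosen after seeing the data, without A_37_P175241, the difference of ABHD17C was -1.99 ± 0.06 (SD of 3 pairs) in control cells and -2.00 ± 0.37 in silenced cells. The signal left was then 25.2% and 25.1% of the cells without the mimic. The median over the 3 probes gave -1.92 and -1.65.

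**Figure D2:**
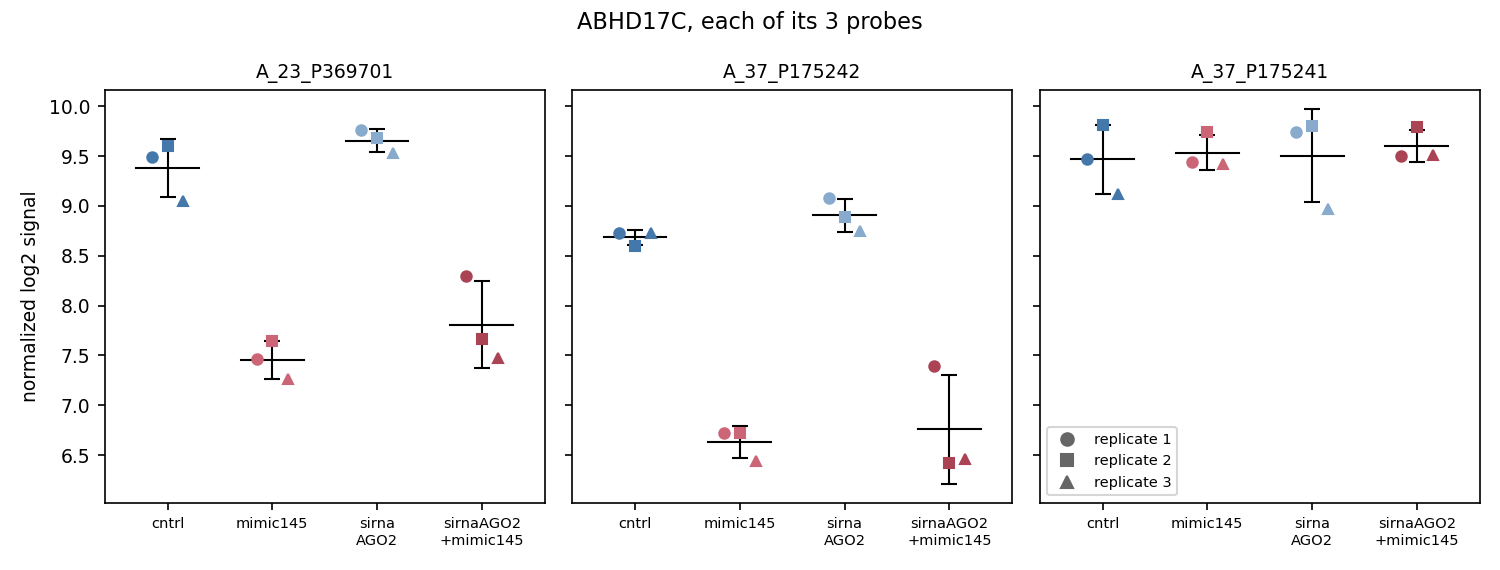
Normalized log2 signal of the 3 ABHD17C probes (1 panel each, vertical axis) in the 4 groups (horizontal axis), with 1 point per array, a line at the mean and a bar of 1 SD (n = 3 arrays). A_23_P369701 and A_37_P175242 are lower on every array with the mimic, and A_37_P175241 is not.

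ABHD17C did not pass the test for silencing of Ago2 alone. This comparison was not itself used to choose the gene. Its cntrl and sirnaAGO2 arrays are the baselines of the mimic differences that were, so the test is not independent of the choice. The log2 difference between sirnaAGO2 and cntrl was 0.18 (95% confidence interval -0.07 to 0.42, adjusted p = 0.419, limma), and it was above 0 in all 3 pairs. Over the members, 0 of 8 changed after silencing by limma, and 0 of 7 without ABHD17C, beside 2.58% of all genes. The arrays of sirnaAGO2 and cntrl did not overlap for 2 of 8, LYPLA1 and PPT1, beside 19.1% of all genes. At an unadjusted p under 0.05 the count was 2 of 8, the same pair, beside 19.0% of all genes. The methods' t-test gave 3 of 8 unadjusted, this pair and ABHD17B, beside 17.5% of all genes. After adjustment it gave 0, for which no share of all genes was computed. AGO2, the silenced gene, did not pass there either (adjusted p = 0.24, the methods' t-test).

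The close relatives of ABHD17C were not called changed in either arm. ABHD17A, measured by 12 probes, was 11.08, 11.37 and 10.69 on the cntrl arrays and 11.21, 11.49 and 11.29 on the mimic145 arrays, and the groups overlapped. Its difference was 0.28 (95% confidence interval 0.05 to 0.51, adjusted p = 0.0773, limma). In silenced cells the difference was 0.12 (interval -0.11 to 0.35, adjusted p = 0.471, limma). The ABHD17A value is uncertain because the annotation names 8 pseudogenes after it, whose transcripts its probes could also bind.

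ABHD17B was 8.30, 8.08 and 8.13 on the cntrl arrays and 8.38, 8.16 and 8.03 on the mimic145 arrays. Its difference was 0.02 in control cells (95% confidence interval -0.15 to 0.19, adjusted p = 0.871, limma) and -0.13 in silenced cells (interval -0.30 to 0.04, adjusted p = 0.278, limma). Its 5 kept probes ran from -0.33 to 0.67 in control cells, so they disagreed in sign.

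ZDHHC9, the acyltransferase, was lower with the mimic. Its signal was 8.91, 9.20 and 9.15 on the cntrl arrays, 8.28, 8.46 and 8.58 on the mimic145 arrays, 9.12, 9.24 and 9.21 on the sirnaAGO2 arrays and 8.86, 8.77 and 8.83 on the sirnaAGO2+mimic145 arrays. The arrays with the mimic lay below those without it in each arm. ZDHHC9 fell by 0.64 in control cells (SE 0.08, adjusted p = 0.00102, limma), to 64.0% of cntrl. All 12 kept probes were lower, by between -0.26 and -1.07. In silenced cells ZDHHC9 fell by 0.37 (SE 0.08, adjusted p = 0.0365, limma), to 77.5% of sirnaAGO2, and 11 of 12 probes were lower.

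The exception, probe A_37_P072783, was higher by 0.38 in silenced cells and was well above background on only 1 of 3 mimic145 arrays. Restricted to the probes above background on every array, ZDHHC9 differed by -0.60 and -0.36 (adjusted p = 0.00033 and 0.0161, limma). The call in silenced cells was lost without the replicate block (adjusted p = 0.164, limma) and without any of the 3 replicates (0.0699 without replicate 1, 0.27 without replicate 2 and 0.216 without replicate 3). It was also lost without sirnaAGO2 replicate 1, 2 or 3 (0.0972, 0.155 and 0.11), without sirnaAGO2+mimic145 replicate 2 or 3 (0.119 and 0.126) and without cntrl replicate 2 (0.0506), all by limma. The mimic difference was smaller in silenced cells in all 3 pairs, by 0.27 (SE 0.12), but this difference of effects did not pass (adjusted p = 0.287, limma).

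GOLGA7, the partner of ZDHHC9, was not called changed. It was 9.55, 9.57 and 9.69 on the cntrl arrays and 9.89, 9.74 and 9.75 on the mimic145 arrays. The mimic145 arrays lay above the cntrl arrays without overlap, but the difference of 0.19 did not pass (95% confidence interval -0.02 to 0.39, adjusted p = 0.176, limma). In silenced cells the difference was -0.07 (interval -0.27 to 0.14, adjusted p = 0.653, limma), with -0.24, -0.08 and 0.12 in the pairs. With no filter on dim probes the difference in control cells was 0.31 and passed (adjusted p = 0.0356, limma). That setting added only probe A_37_P461031, which was well above background on 1 mimic145 array and on no array of the other groups. Its own difference was 1.20 with an SD of 1.41 over the pairs.

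**Figure D3:**
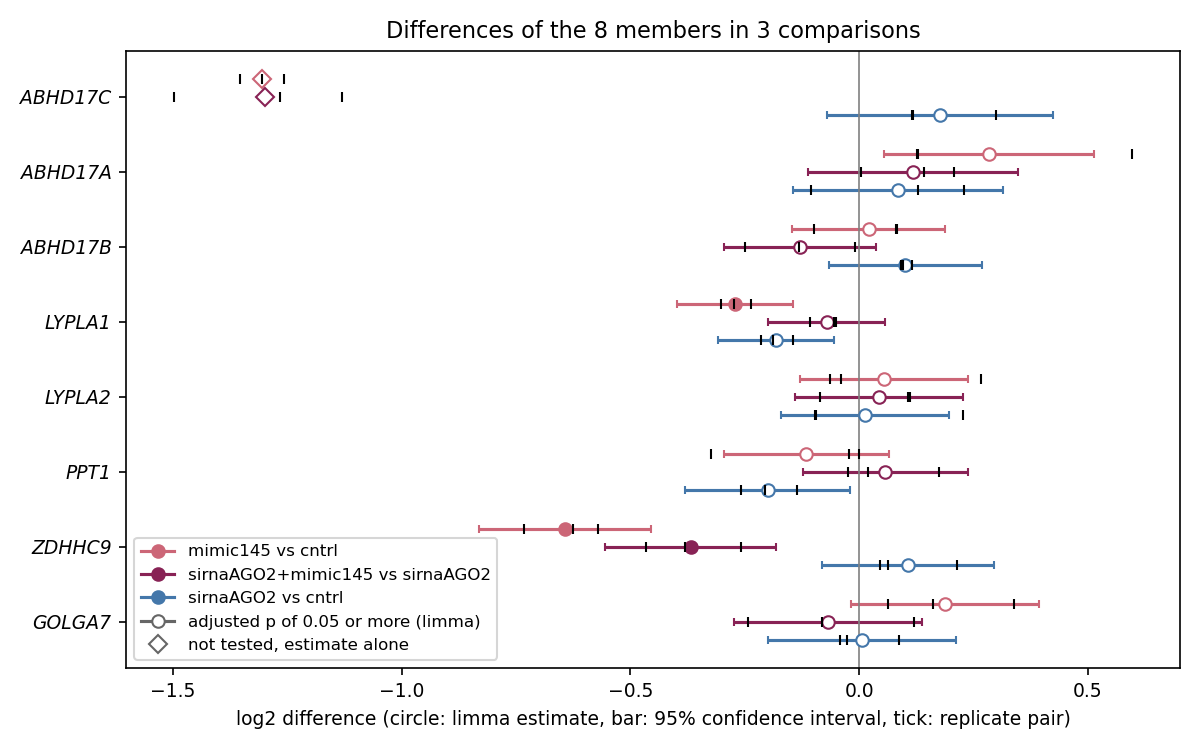
Log2 differences (horizontal axis) of the 8 members (vertical axis) for the mimic in control cells, the mimic in silenced cells and silencing alone, with 95% confidence intervals as bars and the 3 replicate pairs as ticks. Filled circles are the calls of limma, ZDHHC9 with the mimic in both arms and LYPLA1 with the mimic in control cells. Diamonds give the mimic differences of ABHD17C, which was chosen for them, so that they were not tested; its silencing difference was tested and did not pass.

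LYPLA1, a cytosolic thioesterase, fell slightly with the mimic in control cells. Its signal was 9.32, 9.35 and 9.40 on the cntrl arrays and 9.09, 9.08 and 9.10 on the mimic145 arrays. On the arrays of silenced cells it was 9.14, 9.21 and 9.19 without the mimic and 9.08, 9.10 and 9.13 with it. The 3 cntrl arrays were higher than the other 9. LYPLA1 fell by 0.27 in control cells (SE 0.06, adjusted p = 0.00903, limma), to 82.9% of cntrl, and all 8 probes were lower.

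In silenced cells the LYPLA1 difference was -0.07 (95% confidence interval -0.20 to 0.06, adjusted p = 0.429, limma), although the arrays did not overlap. The difference between the effects was 0.20 and did not pass (adjusted p = 0.261, limma). After silencing alone LYPLA1 differed by -0.18 with all 8 probes lower and no overlap of the arrays, which did not pass either (adjusted p = 0.126, limma). The call in control cells was lost without replicate 1, 2 or 3 (adjusted p = 0.113, 0.0843 and 0.0848) and where only the arrays compared were fitted (0.1), by limma. The annotation names 3 pseudogenes after LYPLA1 and 3 after LYPLA2, so probes of both genes could bind their copies.

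LYPLA2 and PPT1 were not called changed in any comparison. LYPLA2 was 9.84, 9.97 and 9.58 on the cntrl arrays and 9.81, 9.90 and 9.84 on the mimic145 arrays. Its mimic difference was 0.05 in control cells (95% confidence interval -0.13 to 0.24, adjusted p = 0.679, limma) and 0.04 in silenced cells (interval -0.14 to 0.23, adjusted p = 0.754, limma). PPT1 was 9.55, 9.43 and 9.56 on the cntrl arrays and 9.34, 9.29 and 9.30 on the sirnaAGO2 arrays. Its silencing difference was -0.20 (interval -0.38 to -0.02, adjusted p = 0.218, limma) with no overlap of the arrays and with 8 of 9 probes lower. The PPT1 mimic difference was -0.12 in control cells and 0.06 in silenced cells (adjusted p = 0.335 and 0.673, limma).

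Counted over the 7 members other than ABHD17C, 2 changed with the mimic in control cells, both lower, beside 22.6% of all genes in either direction and 11.0% lower. Their median difference was 0.02, beside 0.01 for all genes. The 3 arrays of each group did not overlap for 3 of the 7 (ZDHHC9, LYPLA1 and GOLGA7), beside 28.4% of all genes. In silenced cells 1 of 7 changed, ZDHHC9, which was lower, beside 7.28% of all genes and 3.03% lower, and the median was -0.07 beside 0.02. Lower genes made up 41.6% of all calls there and 19.8% with scaling by the 75th percentile. The arrays of silenced cells did not overlap for 2 of the 7 (ZDHHC9 and LYPLA1), beside 24.1% of all genes. For the difference between the effects in both arms the count was 0 of 7 by limma, beside 0.0110% of all genes. At an unadjusted p under 0.05 it was 2 of 7 (ZDHHC9 and LYPLA1), beside 16.8% of all genes. The methods' t-test gave the same 2 unadjusted, beside 10.3% of all genes. After adjustment it gave 0, for which no share of all genes was computed. The members' shares of 28.6% and 14.3% rest on 2 genes and 1 gene, and nothing particular to the set is read from them.

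**Figure D4:**
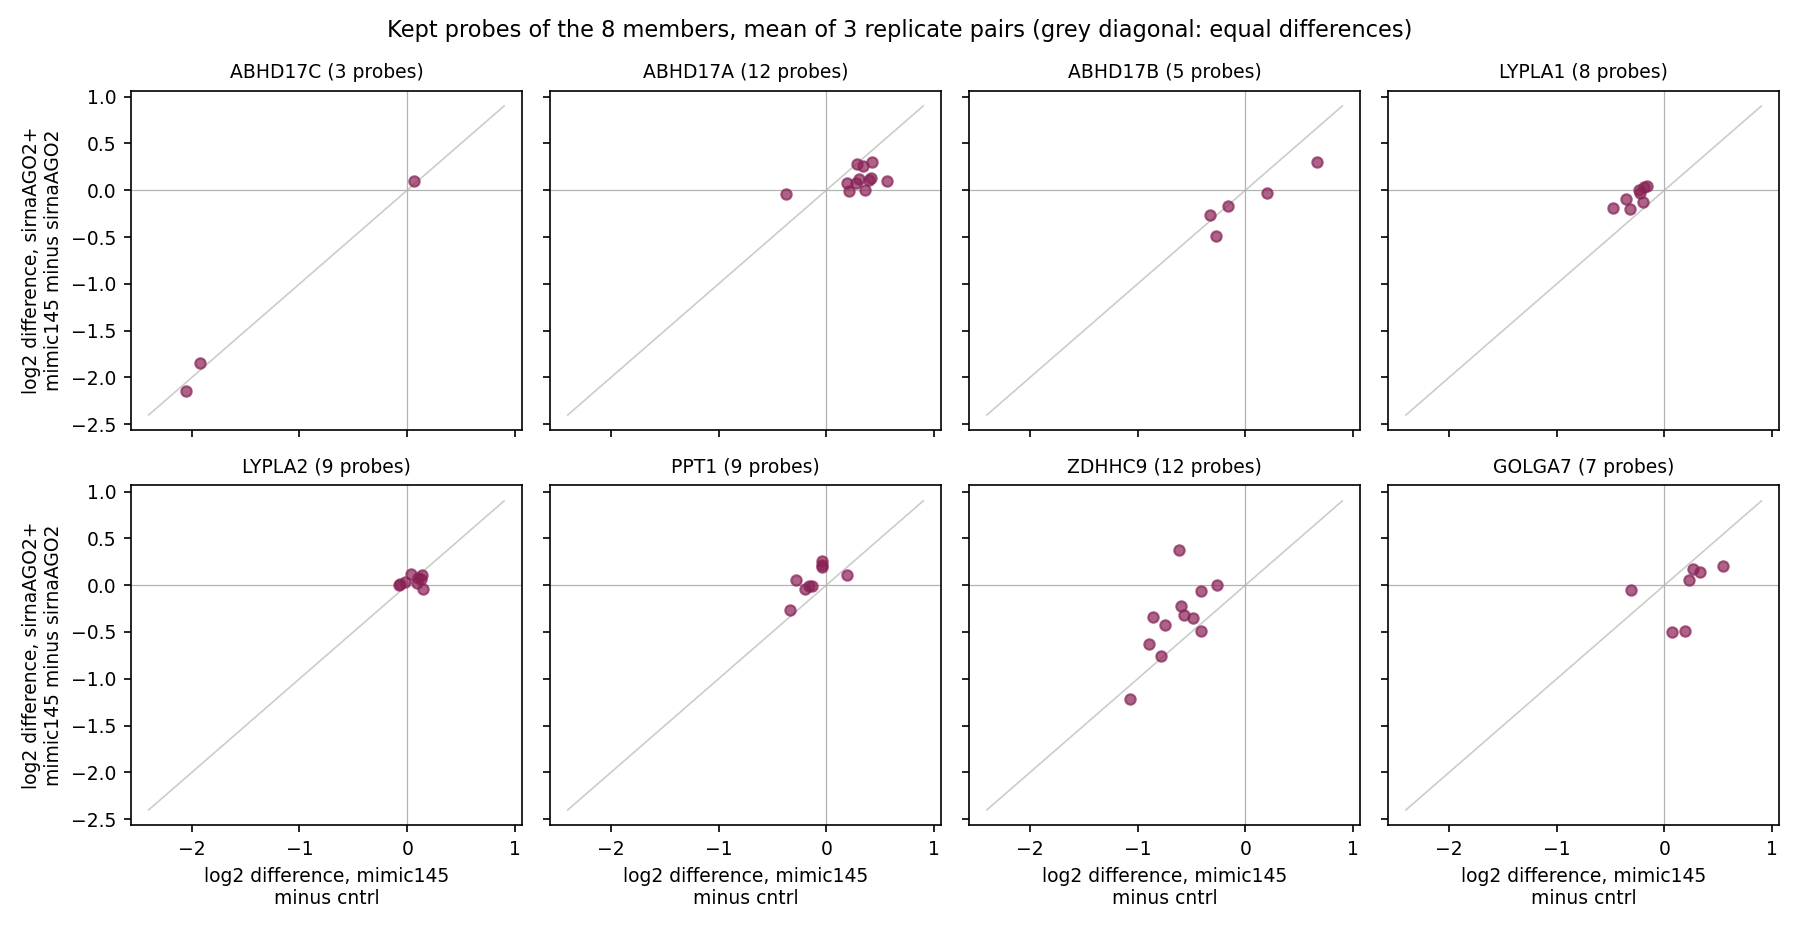
Each point is a kept probe of a member (1 panel per gene), placed by its mean log2 difference with the mimic in control cells (horizontal axis) and in silenced cells (vertical axis), over 3 replicate pairs. A grey diagonal marks equal differences. Of the ABHD17C probes, 2 lie near -2 on both axes and 1 near 0, and the 12 ZDHHC9 probes all lie left of 0.

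Across the 12 arrays, the signal of the other members had Pearson correlations with ABHD17C between -0.40 (GOLGA7) and 0.84 (ZDHHC9). Among all genes with at least 3 kept probes, the 5 most alike were SMAD4 (r = 0.99), DTD1 (0.98), SWAP70 (0.98), SNX24 (0.97) and ABRACL (0.97). The arrays share the 4 groups, so these values describe the pattern of these libraries and carry no test. The sizes differed: SMAD4 was lower by -0.29 and -0.22 with the mimic in control and silenced cells, and SNX24 by -0.41 and -0.36. DTD1 differed by -1.55 and -1.21, SWAP70 by -1.50 and -1.28, and ABRACL by -1.63 and -1.29.

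Other genes of palmitoylation were taken from a list of 28, the remaining ZDHHC acyltransferases, their partner proteins and further thioesterases, of which 27 were measured. In control cells 8 of 27 changed with the mimic, beside 22.6% of all genes, 3 lower and 5 higher, and the median difference was 0.06 beside 0.01. ZDHHC2, an acyltransferase of the plasma membrane and recycling endosomes, fell by 0.84 (adjusted p = 0.000407, limma). ZDHHC16, an acyltransferase of the endoplasmic reticulum, fell by 0.52 (adjusted p = 0.00111), and LYPLAL1, a relative of the LYPLA thioesterases, fell by 0.52 (adjusted p = 0.00681, limma). SELENOK, the selenoprotein that works with ZDHHC6, rose by 0.53 (adjusted p = 0.00487), and ZDHHC14 rose by 0.52 (adjusted p = 0.0034, limma). ZDHHC11, PPT2 and ZDHHC12 rose by 0.42, 0.28 and 0.26 (adjusted p between 0.0262 and 0.035, limma). ZDHHC11 is uncertain, since no probe was assigned to its near-identical copy ZDHHC11B.

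In silenced cells 3 of 27 genes of the list changed with the mimic, beside 7.28% of all genes, and the median was 0.03 beside 0.02. ZDHHC2 fell by 0.34 and LYPLAL1 by 0.43, and SELENOK rose by 0.44 (adjusted p = 0.0476, 0.0398 and 0.0357, limma). The 3 genes had changed in the same direction in control cells. For the difference between the effects 0 of 27 passed by limma, beside 0.0110% of all genes. At an unadjusted p under 0.05 the count was 5 of 27, beside 16.8% of all genes. The methods' t-test passed 0 after adjustment in the mimic and silencing comparisons, for which no share of all genes was computed.

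After silencing alone 2 of 27 changed, both lower, beside 2.58% of all genes and 1.69% lower, and the median was 0.00 beside -0.03. ZDHHC20, an acyltransferase of EGFR, fell by 0.61 (adjusted p = 0.0138, limma), and ZDHHC17, the acyltransferase of huntingtin, fell by 0.46 (adjusted p = 0.0393, limma). With the slide as a random block 0 of 27 passed, and no slide held arrays of both arms. Over all genes that setting called 36 after silencing, against 471 in the main fit. Without the replicate block 0 of 27 passed in silenced cells and 1 after silencing, ZDHHC20. Over all genes 78 and 48 were then called, against 1328 and 471 in the main fit.

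**Figure D5:**
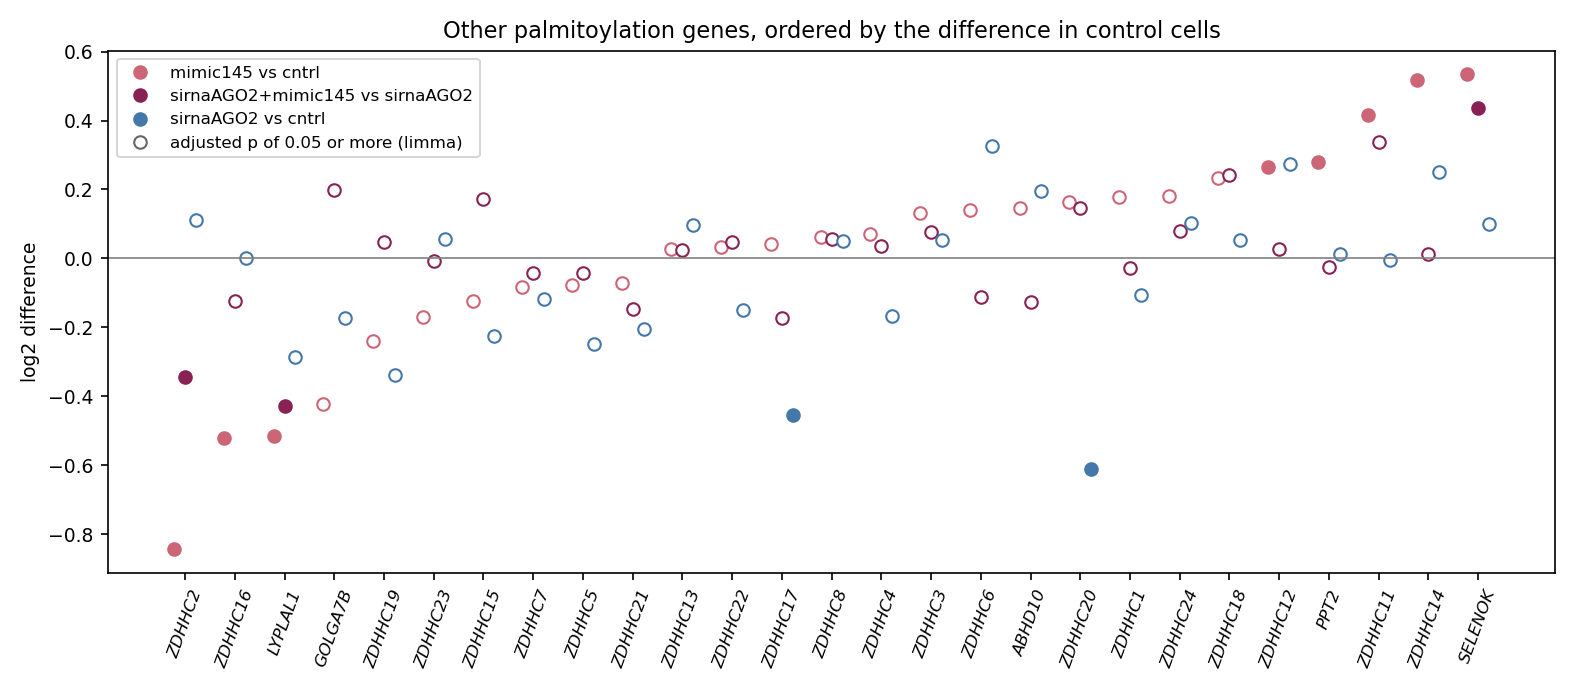
Log2 differences (vertical axis) of the 27 other palmitoylation genes measured (horizontal axis), ordered by the mimic difference in control cells, for the mimic in control cells, the mimic in silenced cells and silencing alone. Filled points passed an adjusted p of 0.05 by limma; ZDHHC2 is the lowest and SELENOK the highest in control cells, and ZDHHC20 and ZDHHC17 are the filled points of silencing.

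Of 17 further hydrolases of the ABHD family, 16 were measured. In control cells 3 changed with the mimic, beside 22.6% of all genes, with a median of -0.06 beside 0.01. ABHD6, which degrades the endocannabinoid 2-arachidonoylglycerol, rose by 0.44 and ABHD2 rose by 0.26, and ABHD15 fell by 0.39 (adjusted p = 0.00914, 0.0385 and 0.0203, limma). In silenced cells 1 of 16 changed, ABHD15, which fell by 0.39 (adjusted p = 0.0448, limma), beside 7.28% of all genes, and the median was 0.00 beside 0.02. That call held under only 3 of 27 alternatives, where the difference ran from -0.76 to -0.17. In control cells ABHD6, ABHD15 and ABHD2 passed under 21, 11 and 10 of 27. Among the 27 alternatives is the methods' t-test judged at an unadjusted p under 0.05. The largest difference of the family, -1.01 for ABHD12B in control cells, rested on 1 probe and did not pass (adjusted p = 0.077, limma). After silencing 0 of 16 passed by limma, beside 2.58% of all genes, with 4 at an unadjusted p under 0.05, beside 19.0%. For the difference between the effects 0 of 16 passed by limma, beside 0.0110% of all genes, with 0 at an unadjusted p under 0.05, beside 16.8%.

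A list of 35 proteins known to carry palmitate was set beside the enzymes, of which 33 were measured. In control cells 9 of 33 changed with the mimic, beside 22.6% of all genes, 3 lower and 6 higher, with a median of 0.03 beside 0.01. NRAS, a substrate of ZDHHC9 and of the ABHD17 enzymes, fell by 0.60 in control cells and by 0.66 in silenced cells (adjusted p = 0.000824 and 0.00519, limma). HRAS differed by 0.21 and -0.08 in the same comparisons and passed in neither (adjusted p = 0.135 and 0.616, limma). YES1, a kinase of the Src family, fell by 0.69 and 0.73 (adjusted p = 0.00591 and 0.0199, limma).

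The G protein subunit GNA13 rose by 0.95 in control cells and by 0.47 in silenced cells (adjusted p = 0.000219 and 0.0199, limma). GNA12 rose by 0.57 and 0.30 (adjusted p = 0.000865 and 0.039), and GNA11 rose by 0.70 in control cells (adjusted p = 0.00413, limma). The raft protein FLOT1 fell by 0.30 in control cells, and RHOB (1 probe), the transcription factor TEAD1 and the tetraspanin CD81 rose by 0.48, 0.29 and 0.28 (adjusted p between 0.0124 and 0.0365, limma). Of these 4, CD81 passed under only 9 of 27 alternatives, FLOT1 under 15, RHOB under 18 and TEAD1 under 20. In silenced cells 4 of 33 changed, NRAS, YES1, GNA12 and GNA13, beside 7.28% of all genes, with a median of 0.00 beside 0.02. There GNA12, YES1, GNA13 and NRAS passed under 12, 16, 17 and 23 of 27 alternatives. After silencing 0 of 33 passed by limma, beside 2.58% of all genes, with 9 at an unadjusted p under 0.05, beside 19.0%. For the difference between the effects 0 of 33 passed by limma, beside 0.0110% of all genes, with 6 at an unadjusted p under 0.05, beside 16.8%.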

How the data were processed

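Transcripts of MDA-MB-231 cells were measured on 12 single-color exon arrays, 3 per group, with groups and replicate numbers from the labels. The authors deposited for each array Feature Extraction 10.7.3.1 intensity values, corrected for background within the array, and a table of log2 values, quantile normalized over the arrays. Control and outlier spots were left out, an intensity under 1 was set to 1, and the arrays were quantile normalized and log2 transformed, as in the methods. Probes were averaged over spots and assigned to genes through RefSeq accessions (209671 of 233164 probes), and 142929 probes of 18253 genes were kept. The 8 members had 65 kept probes of 69, of which 60 were well above background on all 12 arrays. The number of arrays limits the precision, with a median standard error of a log2 difference of 0.10.

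All 12 arrays were fitted with limma 3.58.1 (lmFit, eBayes) in R 4.3.3, with the replicate number as a block, since the methods name a paired test. Deviations from the group means correlated at 0.15 to 0.58 between arrays that share a number (18 pairs) and at -0.50 to 0.20 for others. Tests were two-sided and were tried on simulated data, with differences planted in 200 genes in the mimic comparisons only. Of planted log2 differences of 0.5, 36.5% were called in control cells and 32% in silenced cells. Of those of 1, 88.5% were called in each. The adjusted p depends on how many genes change, and far more were called in the data (22.6% and 7.28% of all genes). These shares therefore do not give the power of the comparisons in the data. The members and lists were chosen with earlier results of these data known. Named genes are the members, AGO2, the genes of each list that passed in a comparison (at most 10 by size) and the 5 most correlated with ABHD17C. HRAS and ABHD12B were chosen after their values were seen. Some genes of the lists are not reported here. Alternatives were 75th percentile scaling, normexp, the authors' log2 table, other filters, the median over probes, no block, the slide as a random block, fewer arrays, an intensity trend, the methods' t-test without and with adjustment, and leaving out replicates and arrays. In the t-test without adjustment a pass was an unadjusted p under 0.05, and it enters the counts of alternatives passed. Untranslated regions, protein sequences and probe positions were not analysed here.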

Additional observations from a re-analysis of the deposited data

How the results depend on the processing

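No difference of a member or of another named gene that had passed changed sign under any alternative, except that the AGO2 rise with the mimic was not tried. The silencing difference of ABHD17B, which passed the methods' t-test unadjusted (0.10), was -0.09 with the median over probes. Of 1697 comparisons of a gene difference with an alternative, 43 changed sign where neither the reported value nor that alternative's passed, and 312 lost a call. Without the replicate block, the count of changed members other than ABHD17C stayed at 2 with the mimic in control cells and was 0 in silenced cells. The palmitoylation list then gave 5, 0 and 1 for the mimic in control cells, the mimic in silenced cells and silencing. Over all genes the calls in these comparisons were 1997, 78 and 48, against 4121, 1328 and 471 in the main fit. With only the arrays compared, the members gave 1 and 0 with the mimic, and the list gave 5, 0 and 1. Calls over all genes were not counted in that setting. With the median over probes, ZDHHC9 in silenced cells no longer passed (0 of 7), and the list gave 1 in silenced cells and 1 after silencing. Over all genes 1067 and 236 were then called. With no filter on dim probes the list gave 1 in silenced cells, beside 1033 of all genes. After silencing the list gave 4 with normexp, 4 where every array had to show a probe above background, and 0 where slides were a random block. The calls over all genes moved too, to 828, 1117 and 36 in these settings. The methods' t-test gave, unadjusted, 3 of 8 members and 8 of 27 list genes after silencing (17.5% of all genes) and 2 of 7 members for the difference of effects (10.3% of all genes), and 0 for every count after adjustment. No share of all genes was computed after adjustment, so nothing particular to the members or the list is read from these counts of 0. Leaving out a replicate or an array gave between 1 and 2 members with the mimic in control cells and between 0 and 1 in silenced cells, and between 3 and 8, 0 and 3, and 0 and 2 genes of the list in the 3 comparisons. The members gave 0 after silencing and 0 for the difference of effects under every one of these.

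ABHD17C was below 0 under all 28 alternatives in both arms, between -1.99 and -0.95 in control cells and between -2.00 and -0.98 in silenced cells, where normexp gave the smallest values and the mean without A_37_P175241 the largest. ZDHHC9 passed under 26 of 27 alternatives in control cells and under 14 of 27 in silenced cells, and LYPLA1 under 22 of 27 in control cells. Among the 27 is the methods' t-test without adjustment, where an unadjusted p under 0.05 was counted as a pass. ABHD17A passed in control cells with normexp (0.26, adjusted p = 0.0435, limma). Of the calls in the palmitoylation list, ZDHHC2, ZDHHC16, ZDHHC14, SELENOK and LYPLAL1 passed under 25 or 26 of 27 alternatives in control cells, and ZDHHC11, ZDHHC12 and PPT2 under 14, 13 and 11. In silenced cells ZDHHC2, LYPLAL1 and SELENOK passed under 8, 10 and 12, and after silencing ZDHHC17 and ZDHHC20 passed under 7 and 18. Scaling by the 75th percentile moved the median difference of all genes in silenced cells from 0.02 to 0.11. The causes were not tested. With 3 arrays a group, a difference that did not pass is not shown to be absent, and its interval gives the sizes left possible.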
